A study of Mus musculus with 10 samples.

Results

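The genes described here encode phosphoribosyl pyrophosphate (PRPP) synthetase and the proteins bound to it, measured in RNA from mouse skeletal muscle. It comprised Prps1, Prps2 and Prps1l3, the associated proteins Prpsap1 and Prpsap2, and Mipol1, the gene in which Prps1l3 lies, which makes 6 members of the 43629 genes counted. Prps1l3 was chosen by its difference between genotypes in immunoprecipitated RNA over total RNA, and the others were taken by name as its relatives and host gene. The values of Prps1l3 are therefore given as a description, with no test, in every comparison.

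RNA was sequenced from muscle of male C57BL/6 mice that were 6 weeks old and had been on a high-fat diet for 2 weeks, in every group. Total RNA was measured in wild-type (WT, n = 3) and IMP2 knockout (KO, n = 3) muscle. RNA recovered by immunoprecipitation (IP) with a home-made antibody against IMP2, the mRNA-binding protein encoded by Igf2bp2, was measured in WT (n = 2) and KO (n = 2) muscle. The sample labels call the KO mice IMP2 null, while the series text describes a knockout specific to muscle, which would leave the gene in other cells of the tissue. Whether each library stands for its own animal is not stated in the labels. The p-values thus measure only how these samples vary, and some of that may be technical.

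PRPP synthetase transfers pyrophosphate from ATP to ribose 5-phosphate, the sugar phosphate that the pentose phosphate pathway supplies. The product, PRPP, is the ribose donor for the synthesis of purines and pyrimidines, for the salvage of free bases and for NAD. Prps1 and Prps2 encode the catalytic isoforms, and Prpsap1 and Prpsap2 encode non-catalytic proteins of the same complex that are regarded as inhibitors. Skeletal muscle turns over its adenine nucleotides through AMP deaminase and the purine nucleotide cycle, and resynthesis of what is lost draws on PRPP. Mipol1 encodes a coiled-coil protein and has no known role in PRPP synthesis.

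Prps1l3 and Prps1 differ at few bases of their coding sequences, so the sequences are shown first. The coding sequence of Prps1l3 held 954 bases, the length of that of Prps1, and the copies were identical at 924 bases (96.9%). Of the 30 differing bases, 29 left the encoded residue as it was. The exception was C4T (the base of Prps1 first, then the position from 1 at the start codon, then the base of Prps1l3), which changes codon 2, so that 317 of 318 residues were identical. The first coding bases, with the 5 differing bases in capitals, are from chrX:140456742-140456831 (plus strand) for Prps1 and from chr12:57238426-57238515 (plus strand) for Prps1l3, both in GRCm38.
Prps1: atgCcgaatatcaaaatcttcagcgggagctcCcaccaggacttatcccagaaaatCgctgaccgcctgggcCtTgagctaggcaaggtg
Prps1l3: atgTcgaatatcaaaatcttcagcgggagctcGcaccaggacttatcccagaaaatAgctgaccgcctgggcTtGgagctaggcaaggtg
The 90 bases with the most differences, coding positions 604 to 693, hold 6, again in capitals. They are from chrX:140472070-140472159 for Prps1 and chr12:57239029-57239118 for Prps1l3.
Prps1: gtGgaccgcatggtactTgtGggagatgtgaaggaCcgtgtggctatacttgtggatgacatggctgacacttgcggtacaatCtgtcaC
Prps1l3: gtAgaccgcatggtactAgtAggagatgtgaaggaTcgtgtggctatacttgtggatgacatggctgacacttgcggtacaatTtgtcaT
All the other bases of both stretches are shared, and the longest shared run of the coding sequences is 164 bases, from position 364 to 527. A read that lies in such a run fits both genes equally and would be set aside where reads must align to a single place. Of all possible 50-base stretches, 19.7% of the Prps1l3 transcript were found in Prps1 or Mipol1, and 10.1% of the Prps1 transcript in Prps1l3. Within the coding sequence the share was 21.3% for each copy. The stretches shared with Mipol1 come from the overlapping first exons, which are the same bases of the genome. At 100 bases the shares were 9.38% and 3.48% of the transcripts, and 7.6% of each coding sequence. Read length is not given in the labels.

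**Figure D1:**
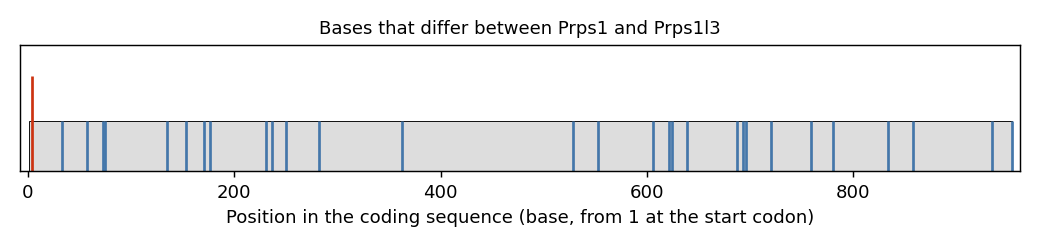
Positions of the 30 bases that differ between the coding sequences of Prps1 and Prps1l3, along 954 bases from the start codon. Blue lines leave the residue unchanged and the taller red line, at position 4, changes it. The widest gap is the shared run of 164 bases.

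The other relatives were further apart. Prps2 shared 80.0% of coding bases and 95.6% of residues with Prps1, and Prps1l1, a copy known in testis that carries the retrogene tag in the annotation, shared 86.9% and 95.3%. The associated proteins shared 47.9% (Prpsap1) and 48.9% (Prpsap2) of aligned residues with Prps1, and 77.7% with each other. Prps2 and Prpsap1 had almost no stretch in common with another gene. Of the 50-base stretches of the Prpsap2 transcript, 34.0% were found in the pseudogenes Gm13651 and Gm4993, so its level may be understated.

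Prps1l3 (ENSMUSG00000079104) is annotated on chromosome 12 from 57230412 to 57239882 on the plus strand (GRCm38, GENCODE M21), with 2 exons. Exon 1 (57230412 to 57230611) is non-coding and exon 2 (57238363 to 57239882, 1520 bases) holds the whole coding sequence, from 57238426 to 57239379. Mipol1 (ENSMUSG00000047022, 57230427 to 57497199, plus strand) starts 15 bases after Prps1l3. Of the 200 bases of exon 1 of Prps1l3, 185 lie in a Mipol1 exon. Reads there would be ambiguous and counted for neither gene if the counting used these exons. In 6 of the 10 Mipol1 transcripts the first exon ends at the same base as exon 1 of Prps1l3. Exon 2 lies in the first intron of Mipol1 and shares 0 bases with its exons. On these exons the counts of Prps1l3 would come from exon 2 and a few bases of exon 1. The annotation release used for the counting was not given. The strand setting of the counting was not given, so antisense transcription could not be separated.

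**Figure D2:**
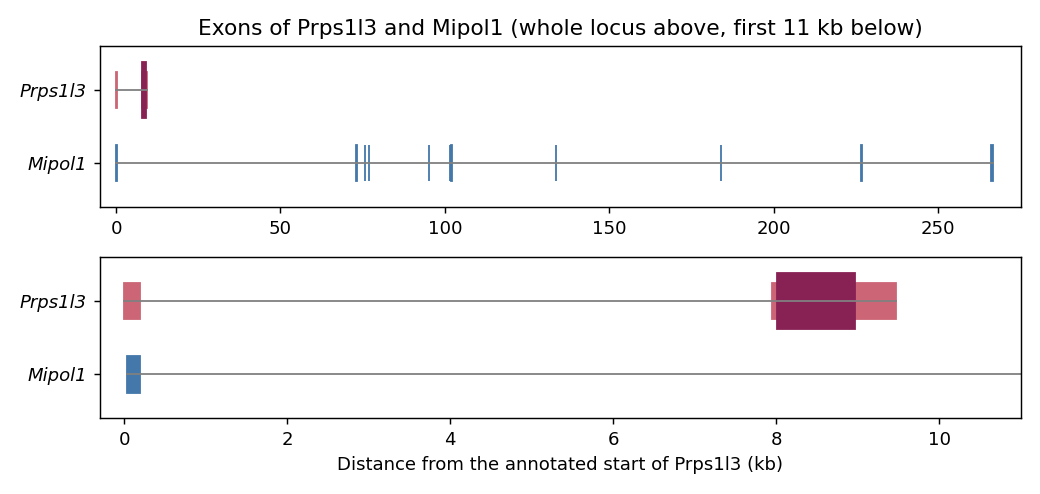
Exons of Prps1l3 (red, coding part dark and taller) and of 1 Mipol1 transcript (blue) by distance in kb from the start of Prps1l3, for the whole locus above and the first 11 kb below. The first exons overlap, and exon 2 of Prps1l3 stands inside the first intron of Mipol1.

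Prps1 (ENSMUSG00000031432) lies on chromosome X (140456613 to 140476140, plus strand), as does Prps2 (ENSMUSG00000025742, 167346322 to 167382749, minus strand). Prpsap1 (ENSMUSG00000015869, 116470845 to 116494202) and Prpsap2 (ENSMUSG00000020528, 61729650 to 61762088) both lie on the minus strand of chromosome 11. None of these sites adjoins the Prps1l3 locus. Within 500 kb of Prps1l3, 9 genes other than Mipol1 were counted, Foxa1 and Ttc6 among them, and none of the 9 had more than 1 count in any library.

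Depth sets how finely these genes can be read. Gene counts ran from 9691580 to 14809788 per library in total RNA and from 917462 to 4037480 in the IP, where KO IP library 1 was the shallowest. Levels are given as CPM, a count scaled to the size of its library. A limit of 3 counts corresponds to 0.203 to 0.310 CPM in total RNA, but to 0.743 to 3.27 CPM in the IP. Igf2bp2 itself was counted 35 to 48 times in WT total RNA, 19 to 21 times in KO total RNA, and 4 to 28 times in the IP libraries of either genotype, so it was not absent from muscle labelled KO. Scaled for depth, it stood at 2.50 to 3.34 CPM in WT and 1.88 to 2.52 CPM in KO total RNA, which overlap. In the IP it stood at 11.76 and 1.56 CPM in WT and at 8.64 and 5.18 CPM in KO. Counts over the whole gene do not show which part of it was removed. All 12 muscle fibre markers were counted in every library. Pancreatic islet transcripts reached 2256 CPM in KO total library 1, where no other total RNA library exceeded 1.00 CPM. Adipocyte transcripts reached 360 CPM in WT total library 2 and 12.55 to 35.8 CPM elsewhere in total RNA. In the IP, islet transcripts (5 genes, none at 0) lay at 40.75 to 319 CPM in WT and 133 to 350.3 CPM in KO. In the IP, a list of nuclear RNAs (6 genes) summed to 1765 and 1867 CPM in WT and to 4497 to 4514 CPM in KO. The fibroblast list (5 genes) summed to 3802 to 5025 CPM in WT IP and 8258 to 9618 CPM in KO IP, and no gene of it was at 0. The erythrocyte list (5 genes) lay at 155 to 310.2 CPM in WT IP and 483 to 777 CPM in KO IP, with Alas2 at 0 in KO IP library 1. Kcnq1ot1 and Snhg11 of the nuclear list were at 0 in KO IP library 1. The part of these differences in the genotype comparisons of the IP was not tested.

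In WT total RNA, Prps1 was the most abundant of the family per length of exon, at 15 CPM per kb on average, followed by Prps1l3 at 7.82, Prpsap1 at 4.58, Prpsap2 at 1.57, Prps2 at 0.767 and Mipol1 at 0.267. No library of a gene reached the range of its neighbour in this order. The Prps1l3 values, 7.46 to 8.26 CPM per kb, lay below the lowest of Prps1, 11.7, and above the highest of Prpsap1, 5.35. In KO total RNA the order by mean was the same, but the lowest Prpsap2 library (0.837 CPM per kb) fell within the range of Prps2 (0.775 to 0.969). Lengths are exonic bases not shared with another gene, summed over all annotated transcripts, which understates a gene with long exons in rare transcripts, such as Mipol1 with 9157 bases. In bulk tissue, fewer cells of a type and less RNA per cell cannot be told apart.

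**Figure D3:**
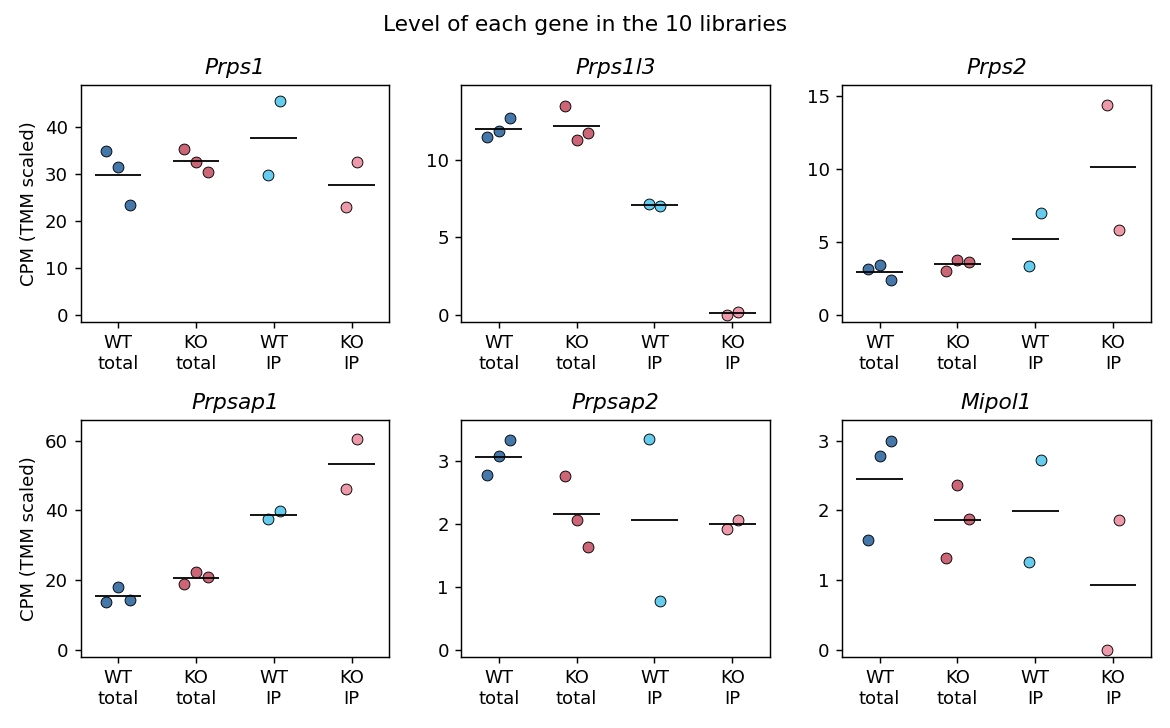
Level in CPM (TMM scaled) of each of the 6 genes, with 1 point per library and the mean as a line, for 3 libraries in each total RNA group and 2 in each IP group. Prps1l3 stands at 11.3 to 13.4 CPM in all 6 total RNA libraries, at 7.01 and 7.14 in WT IP and at 0 and 0.207 in KO IP.

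Prps1l3 stood at 12 CPM in WT and 12.15 CPM in KO total RNA, was present in WT IP, and was almost uncounted in KO IP. In total RNA its counts were 160, 154 and 182 for WT and 112, 114 and 100 for KO. The SD was 0.627 CPM for WT and 1.15 CPM for KO (n = 3 each, scaled by TMM factors), and the ranges overlapped. The log2 difference, KO minus WT, was 0.01 ± 0.17 (SE). The 2 WT IP libraries held 17 and 18 counts, and the 2 KO IP libraries 0 and 1.

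The depth of the KO IP libraries bears on that contrast. Had Prps1l3 been as frequent in each IP library as in pooled total RNA of the same genotype, 26.1 and 30.8 counts would have been seen for WT IP, and 9.61 and 42.3 for KO IP. The deeper KO library, with 1 count, therefore carries most of the contrast, while 0 counts in the shallow one allow up to 3.27 CPM. The pooled level was 36.85 times as high in WT IP as in KO IP, with an exact 95% interval of 6.19 to 1497. Against total RNA it was 0.615 in WT IP (0.424 to 0.868) and 0.0193 in KO IP (4.86e-04 to 0.108). These ratios use library size alone, and the intervals cover counting error only.

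In the fitted contrasts, the log2 level of Prps1l3 was 5.06 ± 1.14 (SE) higher in WT IP than in KO IP. Against total RNA it was -0.76 ± 0.28 in WT IP and -6.04 ± 0.57 in KO IP, and both IP groups lay below every total RNA library of their genotype. That separation was common, at 32.4% of 14399 genes in WT and 31.3% in KO. The difference between the genotypes, on which the gene was chosen, was 5.28 ± 0.71. In that contrast 1 of 14399 genes passed an adjusted p of 0.05 in edgeR's quasi-likelihood test, 0.00694% of those tested. That gene was Prps1l3, and as it was chosen on this contrast, its first place by p tests nothing. The genes next in order of p, BC023105 (-2.30 ± 0.44) and Aldh9a1 (-2.06 ± 0.41), had log2 differences of the other sign, and by size Prps1l3 held rank 78 among genes with a difference in its direction. The count of 1 became 0 when any library other than WT total library 2 was left out. A fitted value for a gene with 0 and 1 counts in a group depends on the prior count and is no bound. Without KO IP library 2, where the remaining KO IP library is at 0, it was 8.87, and without KO IP library 1 it was 5.01.

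Prps1, the widely expressed catalytic isoform, passed the test in no comparison. Total RNA gave 488, 408 and 335 counts for WT and 295, 330 and 259 for KO. The IP gave 71 and 117 counts for WT and 24 and 157 for KO. Scaled levels were 29.9 ± 5.94 and 32.8 ± 2.51 CPM in WT and KO total RNA (SD, n = 3 each), and 37.7 ± 11.1 and 27.8 ± 6.72 CPM in WT and KO IP (SD, n = 2 each). The groups overlapped in every comparison. Its log2 difference in total RNA was 0.13 ± 0.17 (SE, adjusted p = 0.910, quasi-likelihood test of edgeR). In the IP, WT minus KO, it was 0.38 ± 0.32 (adjusted p = 0.718). Against total RNA it was 0.34 ± 0.25 in WT (adjusted p = 0.300) and -0.19 ± 0.26 in KO (adjusted p = 0.599), and the difference between these was 0.52 ± 0.36 (adjusted p = 0.564). With the counts of both copies summed, IP against total RNA in KO was -0.63, a value that contains Prps1l3 and is given with no test.

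Set against Prps1 in the same library, Prps1l3 can be read without any scaling between libraries. Of the counts of both copies in total RNA, Prps1l3 made up 24.7%, 27.4% and 35.2% for WT and 27.5%, 25.7% and 27.9% for KO. In WT IP the shares were 19.3% (17 of 88 counts, exact 95% interval 11.7 to 29.1%) and 13.3% (18 of 135, 8.10 to 20.25%), below all 6 total RNA libraries. In KO IP they were 0 of 24 counts, an interval that reaches 14.25%, and 1 of 158 (0.633%, 0.0160 to 3.48%). The share of the shallow KO IP library is thus known only roughly. The intervals show the counting error of each library and test nothing.

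**Figure D4:**
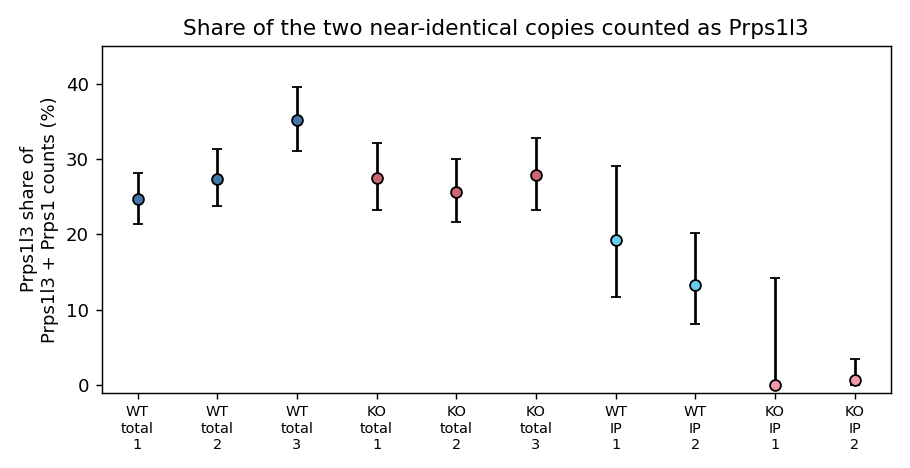
Prps1l3 as a percentage of the counts of Prps1l3 and Prps1 together, for each of the 10 libraries, with exact 95% binomial intervals as bars. The 6 total RNA libraries stand between 24.7% and 35.2%, WT IP at 19.3% and 13.3%, and KO IP at 0% and 0.633%.

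Prps2, the other catalytic isoform, was scarce in total RNA and higher in KO IP, though that call was lost in several alternatives. Counts in total RNA were 44, 44 and 34 for WT and 25, 38 and 31 for KO, or 2.97 ± 0.534 and 3.46 ± 0.406 CPM (SD, n = 3 each). The IP gave 8 and 18 counts for WT and 15 and 28 for KO, which the depth of the libraries puts at 3.36 and 7.01 CPM in WT and at 14.4 and 5.80 CPM in KO. The shallow KO IP library was the highest of all 10, and both KO IP libraries lay above every KO total RNA library, as they did for 29.9% of all genes tested. For WT IP the lower library overlapped total RNA.

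Prps2 was 1.35 ± 0.46 higher (log2, SE) in KO IP than in KO total RNA (edgeR adjusted p = 0.0324). The value in WT was 0.81 ± 0.47 (adjusted p = 0.187), and the genotypes' values did not differ past the threshold (-0.54 ± 0.65, adjusted p = 0.756). The KO call was lost without KO IP library 1 (0.73, adjusted p = 0.247), without any 1 of the KO total RNA libraries (1.27 to 1.43, adjusted p = 0.0585 to 0.0850) and with limma-voom (1.07, adjusted p = 0.0573). Prps2 did not pass between the genotypes in total RNA (0.22 ± 0.26, adjusted p = 0.903) or in the IP (WT minus KO -0.83 ± 0.68, adjusted p = 0.718).

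Prpsap1, the first associated protein, was higher in the IP than in total RNA in both genotypes. Total RNA counts were 193, 233 and 206 for WT and 157, 225 and 178 for KO, and IP counts 89 and 102 for WT and 48 and 292 for KO. The levels were 15.4 ± 2.26 and 20.65 ± 1.70 CPM in WT and KO total RNA (SD, n = 3 each), against 38.55 ± 1.64 and 53.3 ± 10.2 CPM in WT and KO IP (SD, n = 2 each). All 4 IP libraries lay above all 6 total RNA libraries. Over all genes tested, IP libraries lay wholly above total RNA of their genotype for 27.4% in WT and 29.9% in KO. The log2 difference of IP from total RNA was 1.33 ± 0.21 (SE) in WT (edgeR adjusted p = 3.13e-04) and 1.39 ± 0.21 in KO (adjusted p = 2.20e-04). The genotypes' values differed by -0.07 ± 0.30 (adjusted p = 0.950), and the excess was measured in IP from muscle labelled KO as well.

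Between genotypes Prpsap1 did not pass the test. In total RNA all 3 KO libraries (18.8, 22.2 and 20.9 CPM) lay above all 3 WT libraries (13.8, 18.0 and 14.35 CPM), at a log2 difference of 0.42 ± 0.17 (SE, unadjusted p = 0.0345, adjusted p = 0.897 by edgeR's quasi-likelihood test). Such a separation with KO higher was seen in 5.06% of the 13169 genes tested there. With library size in place of TMM factors the difference was 0.21, and without KO total library 1, the one with islet transcripts, 0.49. In the IP both KO libraries lay above both WT libraries (37.4 and 39.7 CPM in WT, 46.1 and 60.5 CPM in KO), and WT minus KO was -0.50 ± 0.27 (adjusted p = 0.525). Such a separation was seen in 20.5% of the 10730 genes tested in the IP.

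Prpsap2, the second associated protein, was the one member lower in all KO total RNA libraries. Total RNA counts were 39, 40 and 48 for WT and 23, 21 and 14 for KO, or 3.07 ± 0.277 against 2.16 ± 0.564 CPM (SD, n = 3 each). The nearest libraries were almost level, at 2.79 CPM in WT and 2.76 CPM in KO. The log2 difference was -0.52 ± 0.29 (SE, adjusted p = 0.897 by edgeR's quasi-likelihood test), and 4.56% of genes separated in that direction. Taken against Prpsap1 in the same library, Prpsap2 made up 14.65% to 18.9% of the counts of both in WT total RNA and 7.29% to 12.8% in KO total RNA. The IP gave 8 and 2 counts for WT and 2 and 10 for KO, too few to pass the filter on low counts in the IP comparison. Its share of the pair in the 4 IP libraries was 1.92% to 8.25%. Over the 10 libraries its IP difference from total RNA was -0.59 ± 0.57 in WT (adjusted p = 0.441) and -0.08 ± 0.59 in KO (adjusted p = 0.928), and the genotypes' values differed by -0.50 ± 0.83 (adjusted p = 0.826).

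Mipol1, the host gene of Prps1l3, had far fewer counts than Prps1l3 in total RNA and did not share its near absence from KO IP. Its counts in total RNA were 22, 36 and 43 for WT and 11, 24 and 16 for KO, and those in the IP 3 and 7 for WT and 0 and 9 for KO. The deeper KO IP library thus held 9 counts of Mipol1 and 1 of Prps1l3, while the shallow one held 0 of both. Of the counts of the pair, the Mipol1 share was 12.1% to 19.1% for WT total RNA, 8.94% to 17.4% for KO total RNA, 15% and 28% for WT IP, and 90% (9 of 10, exact 95% interval 55.5 to 99.75%) in KO IP library 2. At its level in pooled total RNA, 5.31 and 6.27 counts would have been seen for WT IP, and 1.504 and 6.62 for KO IP, close to what was counted.

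Mipol1 averaged 2.45 ± 0.765 CPM in WT and 1.86 ± 0.526 in KO total RNA (SD, n = 3 each), with overlapping libraries. The log2 difference was -0.39 ± 0.37 (SE, adjusted p = 0.897 by edgeR's quasi-likelihood test). IP against total RNA was -0.28 ± 0.66 in WT (adjusted p = 0.766) and -0.41 ± 0.71 in KO (adjusted p = 0.683), and the genotypes' values differed by 0.13 ± 0.97 (adjusted p = 0.974). No difference of Mipol1 was detected, and its IP values rest on 0 to 9 counts per library. Mipol1 was too low for the IP comparison of genotypes. Prps1l1 had 0 counts in all 10 libraries, as markers of testis germ cells were nearly so (at most 0.840 CPM for the 5 genes).

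Of the 5 members other than Prps1l3, 0 passed edgeR's quasi-likelihood test between genotypes in total RNA (1 at an unadjusted p under 0.05) and 0 of the 3 that could be tested passed in the IP (0 unadjusted). Over all genes these comparisons called 0% of 13169 genes in total RNA (569 unadjusted, 5 by DESeq2, 0 by limma-voom) and 0% of 10730 in the IP (1128 unadjusted, 57 by DESeq2, 3 by limma-voom). In the IP, WT libraries lay wholly above KO for 20.6% of genes and wholly below for 20.5%, so such a separation of 2 against 2 libraries is common. Against total RNA, 1 of the 5 passed in WT IP and 2 in KO IP, all of them higher in IP, where 37.0% (WT) and 36.5% (KO) of 14399 genes passed. Higher in IP were 17.6% of genes in WT and 17.7% in KO, and lower were 19.4% and 18.8%. IP libraries lay wholly above total RNA for 27.4% of genes in WT and 29.9% in KO, and wholly below for 32.4% and 31.3%. The KO split rests on the scaling: 2551 genes were higher and 2700 lower with TMM factors, and 4267 and 1439 with library size alone, which shifted the median of all genes by 0.43 on the log2 scale there. It shifted that median by 0.05 in WT, by -0.37 in the difference between genotypes, and by -0.22 in total RNA and -0.14 in the IP. Under it, IP against total RNA in KO was 1.80 for Prps2 and 1.82 for Prpsap1.

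**Figure D5:**
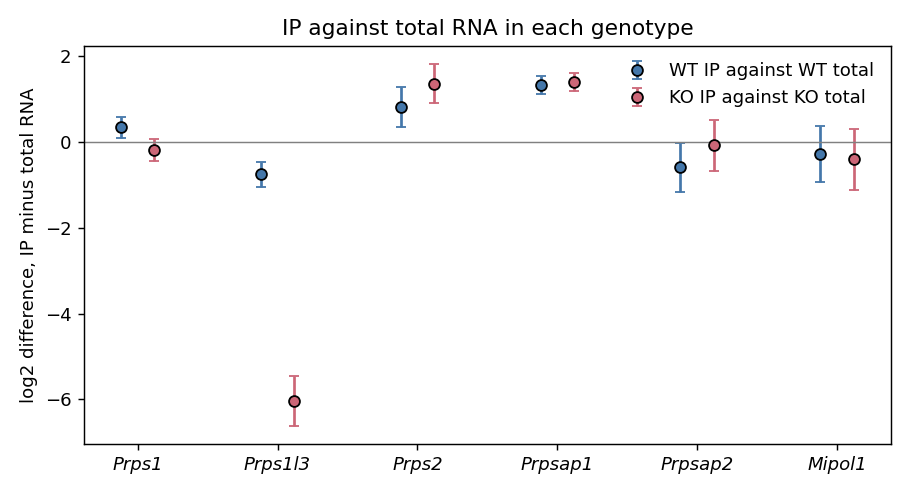
Log2 difference of IP from total RNA for each gene, WT in blue and KO in red, with the standard error of the fit as bars. Prpsap1 stands at 1.33 and 1.39 in the 2 genotypes, and Prps1l3 at -0.76 in WT and -6.04 in KO.

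Across the 10 libraries the log2 levels of the members followed Prps1l3 to different degrees. Pearson's r with Prps1l3 was 0.70 for Mipol1, 0.34 for Prps1, 0.21 for Prpsap2, -0.80 for Prpsap1 and -0.84 for Prps2. By r, Mipol1 held only rank 1926 among the 14399 genes fitted. The genes most like Prps1l3 were Ruvbl1 (r = 0.98), an ATPase of chromatin and assembly complexes, Rsph3a (0.97), a radial spoke protein of cilia, Zmym1 (0.97), a zinc finger protein, Vrk2 (0.97), a kinase, and Vps37c (0.97), a subunit of an endosomal sorting complex. The IP counts of Ruvbl1 were 11 and 13 for WT and 1 and 9 for KO. Those of Rsph3a were 3 and 4, and then 0 and 1. Zmym1 had 4 and 8, and then 0 and 1, and Vrk2 had 6 and 3, and then 0 and 1. Vps37c had 85 and 86, and then 17 and 101, so it was not near absent from KO IP. These values describe patterns over 10 libraries in 4 groups, which share their depth, and low genes take part in the depth of KO IP library 1.

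Genes that supply ribose 5-phosphate, use PRPP or break purines down, and Adk, which salvages adenosine, were taken as 5 lists. Of 39 genes, 38 were found. Between genotypes none of them passed the same edgeR test, in total RNA (3 of 38 at an unadjusted p under 0.05), in the IP (4 of 31) or in the difference of IP over total RNA (3 of 38). Over all genes, 569 of 13169, 1128 of 10730 and 1703 of 14399 had such an unadjusted p. Medians of the 38 stood at -0.12, -0.01 (31 tested) and -0.05 on the log2 scale, against -0.01, -0.01 and -0.02 for all genes. Of the 3 in total RNA, Xdh, which makes uric acid from hypoxanthine and xanthine, differed by -0.84 ± 0.30 (log2, KO minus WT, SE). Its difference was -0.48 without WT total library 3, and -1.31 ± 0.29 without KO total library 1 and WT total library 2. Nampt, the first enzyme of NAD salvage, differed by -0.38 ± 0.16. Tkt, transketolase of the pentose phosphate pathway, differed by -2.58 ± 0.95, and by -0.03 ± 0.26 without KO total library 1 and WT total library 2. Its count was 2915 in WT total library 2, the one with adipocyte transcripts, and 105 to 229 in the remaining 5.

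Against total RNA, more genes of these lists were lower in the IP than higher, in both genotypes. Of 38 genes, 3 rose and 12 fell in WT IP (median -0.40, all genes -0.05) and 5 rose and 11 fell in KO IP (median -0.21, all genes 0.03) by edgeR's quasi-likelihood test. Over all genes tested, 17.6% rose and 19.4% fell in WT IP, and 17.7% rose and 18.8% fell in KO IP. With library size alone the KO counts became 10 that rose and 8 that fell, and none of the genes called under TMM factors changed sign in either genotype. WT and KO were not tested for a difference in these counts. Cell type markers also differed between IP and total RNA. Muscle fibre markers (12 genes, none at 0) summed to 123000 to 221400 CPM in WT total RNA and 99240 to 123100 CPM in WT IP. In KO they summed to 222800 to 299000 CPM in total RNA and 73270 to 98550 CPM in the IP. The most abundant genes weigh most in these sums, and not every gene followed them. Casq1, for one, was higher in the IP for the depth of the libraries, in both genotypes. Fibroblast markers summed to 2079 to 3210 CPM and 3802 to 5025 CPM in WT, and to 2622 to 4530 CPM and 8258 to 9618 CPM in KO. Dcn of that list did not rise in WT IP for the depth of the libraries. It had 641 and 710 counts there, against 7145, 3855 and 4554 in WT total RNA. Erythrocyte markers reached 25.1 to 159 CPM in WT and 47.6 to 120.5 CPM in KO total RNA. The part of these markers in the list counts was not tested.

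Of the 11 genes of purine synthesis, the pathway that PRPP opens, 5 fell in WT IP and 6 in KO IP, where 19.4% and 18.8% of all genes fell. Ppat, the amidotransferase that commits PRPP to purines, fell by 0.94 ± 0.23 in WT and by 1.51 ± 0.25 in KO (log2, SE, edgeR adjusted p = 0.00609 and 4.51e-04). Gart, a trifunctional enzyme of the next steps, fell by 1.80 ± 0.25 in WT and fell by 2.53 ± 0.27 in KO (edgeR adjusted p = 1.02e-04 and 2.62e-05). Impdh2 and Gmps, the enzymes of the branch to GMP, stood at -2.11 ± 0.46 and -1.20 ± 0.25 in WT, and at -2.48 ± 0.48 and -1.598 ± 0.27 in KO, and passed in each. Adss, an adenylosuccinate synthetase of the branch to AMP, went the other way. It rose by 1.66 ± 0.25 in KO IP (edgeR adjusted p = 2.22e-04) and stood at 0.64 ± 0.25 in WT (adjusted p = 0.0585).

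The lists that follow stand against the same shares of all genes, 17.6% higher and 19.4% lower in WT and 17.7% and 18.8% in KO. In the salvage list Nampt fell by 1.16 ± 0.23 in WT IP and by 0.85 ± 0.23 in KO IP, as 1 of 2 genes that fell in each, while 0 of the 6 genes rose. The KO call of Nampt was lost without KO IP library 2, without KO total library 1 and WT total library 2 together, and with library size alone (-0.43, edgeR adjusted p = 0.153). Of the 3 pyrimidine genes, Cad, the multifunctional first enzyme, fell by 0.77 ± 0.28 in WT IP (edgeR adjusted p = 0.0454), a call lost under 14 of 17 alternatives, the omission of either WT IP library among them, and 0 passed in KO IP. Of the 9 genes that supply ribose 5-phosphate, 2 rose in each genotype and 0 fell. Rpia, the isomerase that makes ribose 5-phosphate, rose by 0.86 ± 0.22 in WT (edgeR adjusted p = 0.00812) and by 1.04 ± 0.23 in KO (adjusted p = 0.00276). The second was Pgls in WT (1.02 ± 0.33) and G6pdx in KO (1.37 ± 0.44), both of the oxidative part of the pathway. Both of these calls were lost when either IP library of that genotype was left out, Pgls also without WT total library 1 or 3 and G6pdx also without KO total library 2 or 3, and the Rpia calls without WT IP library 1 (WT) or KO IP library 2 (KO).

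Among the 9 genes of the purine breakdown list, 4 fell and 1 rose in WT IP (19.4% and 17.6% of all genes). In KO IP 3 fell and 2 rose (18.8% and 17.7%). Ampd1, the AMP deaminase of muscle and the most abundant gene of that list, fell by 0.99 ± 0.21 in WT and by 1.02 ± 0.21 in KO (log2, SE, edgeR adjusted p = 0.00230 and 0.00193). Adk, adenosine kinase, is counted in this list although it returns adenosine to AMP and does not break purines down. It fell by 2.06 ± 0.22 in WT and by 1.26 ± 0.21 in KO (edgeR adjusted p = 1.90e-05 and 4.61e-04). Nt5c1a, a nucleotidase of muscle, had 295 counts in WT total RNA and 0 in both WT IP libraries, at least 11.3-fold lower against a limit of 3 counts over that group. It fell by 5.03 ± 1.00 in KO IP. Ada, adenosine deaminase, rose by 1.66 ± 0.48 in WT and by 1.40 ± 0.49 in KO, and Xdh rose by 1.10 ± 0.33 in KO IP. Without KO IP library 2 the KO calls of Nt5c1a, Ada and Xdh were lost, and 8 of the 38 genes of the 5 lists passed in KO IP in place of 16. The KO call of Xdh was also lost without KO total library 2, and that of Ada under 8 of 17 alternatives, the omission of any 1 of the KO total libraries, of WT total library 1 or of WT IP library 2 among them. The WT call of Ada was lost without WT IP library 2. Ppat, Gart, Impdh2, Gmps, Ampd1 and Adk kept their calls in both genotypes under all 17 alternatives run.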

How the data were processed

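The authors deposited 1 table of read counts per Ensembl gene for each library. The submitters' processing notes name STAR, HTSeq and mm10 (GRCm38), with no versions. The strand setting, read length and annotation release are not given in the sources used here. Libraries were made with a TruSeq kit, per the labels' protocols. Reads given to no gene were left out of library sizes. Of all reads, 26.1% to 43.3% aligned to more than one place, and ambiguous reads made up 3.30% to 6.03%, so near-identical genes lose reads. Symbols, exons and coding sequences came from GENCODE M21 (GRCm38), and 42462 of 43629 genes had a symbol. Coding sequences were aligned in full with Biopython 1.88.

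Genes were filtered with filterByExpr (minimum count 10), scaled with TMM factors and tested with edgeR 4.0.16 in R 4.3.3 (quasi-likelihood, two-sided), with Benjamini-Hochberg adjustment over all genes tested at 0.05. KO was compared with WT on 6 total RNA libraries and WT with KO on 4 IP libraries. All 10 libraries were fitted together for the contrasts of IP with total RNA and the difference between genotypes. Standard errors come from the F statistic. Correlations use log2 CPM with a prior count of 2. Binomial and ratio intervals are exact at 95%, and with the limit of 3 counts they cover counting error only. The scripts were tested on simulated data.

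Members, tests and lists were chosen with earlier results of these data known. Named are all members, Prps1l1, the 5 genes most like Prps1l3 and genes within 500 kb. From each pathway list, up to 4 genes with the smallest p among those that passed in IP against total RNA are named. Between genotypes in total RNA, list genes at an unadjusted p under 0.05 in the edgeR test are named. Alternatives were DESeq2 1.42.0, limma-voom (limma 3.58.1), other scalings and filters, leaving out each library, and the labels' replicate number as a block. No pair of libraries agreed within sampling noise.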

Additional observations from a re-analysis of the deposited data

Results flagged for a closer look

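Prps1l3 differed between the genotypes in IP over total RNA by 5.28 ± 0.71 on the log2 scale (SE), by the interaction term of the edgeR fit over 10 libraries. The gene was chosen for this difference, so the value is a description and supports nothing further. It rests on 17 and 18 counts in WT IP against 0 and 1 in KO IP. No group of these data had the 4 or more libraries needed to single out one library by its gap to the others.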

How the results depend on the processing

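The log2 difference of Prps1l3 between genotypes in IP over total RNA was 4.90 with library size alone, 4.31 with limma-voom, 5.25 with the replicate block and 5.01 to 8.87 when 1 library was left out. Its IP difference, WT minus KO, was 4.23 with limma-voom and 4.86 to 6.83 with 1 library left out. KO IP against KO total RNA was -5.61 with library size alone, -5.04 with limma-voom and -9.65 to -5.78 with 1 library left out. The highest and lowest of these are fits in which the KO IP was a single library at 0 counts, assumed to vary like the others. The signs did not change in these 3 contrasts under any alternative run.

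Counts of genes called moved more. For total RNA the 0 calls became 64 with no filter on low counts and 5 with DESeq2. For the IP they became 1 with library size alone, 103 with no filter, 57 with DESeq2, 3 with limma-voom, 1 in a fit of all 10 libraries and 28 with the replicate block, and 13 to 146 with 1 library left out. For the difference between genotypes the 1 call became 263 with no filter and 17 with DESeq2, and 0 with library size alone, with limma-voom, with the replicate block and without KO total library 1 and WT total library 2 together (chosen after seeing the data). With 1 library left out it was 0 to 1, and 1 was kept only without WT total library 2. For KO IP against total RNA, leaving out 1 library gave 2148 to 5706 calls against 5251. Members other than Prps1l3 called there fell from 2 to 1 with limma-voom, with the replicate block and without KO total library 1 and WT total library 2 together, and lay at 1 to 2 with 1 library left out. That was the loss of Prps2, at 1.29 (adjusted p = 0.0798) with the replicate block and 1.29 (adjusted p = 0.0984) without those libraries.

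Among values that passed no test, signs turned as follows. With library size alone, Prps1 became -0.067 in total RNA and 0.24 in KO IP against total RNA, where Prpsap2 became 0.35 and Mipol1 0.0074, and the genotype difference of Mipol1 became -0.26. In KO IP against total RNA Prpsap2 was 0.047 with limma-voom and 0.13 without KO total library 1 and WT total library 2, where the genotype difference of Prpsap1 was 0.12. With 1 library left out, Prps1 ranged from -0.011 to 0.25 in total RNA and from -0.084 to 0.59 in WT IP against total RNA, Prpsap2 from -1.98 to 0.048 and Mipol1 from -1.03 to 0.14 in the latter, and Prpsap2 from -0.24 to 0.12 in KO IP against total RNA. The genotype differences then ranged from -1.24 to 0.065 for Prps2, -0.23 to 0.17 for Prpsap1, -1.88 to 0.25 for Prpsap2 and -0.51 to 6.66 for Mipol1. The cause was not tested. Prpsap1 kept its IP calls in both genotypes under all alternatives run.

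Whether replicate numbers pair the libraries could not be settled. Same-numbered WT and KO total RNA libraries correlated at 0.09, -0.11 and -0.30 in their deviations, and IP libraries at -0.05. Total RNA and IP libraries of the same number correlated at 0.11 and 0.095 in WT and at 0.13 and 0.15 in KO. These fell short of the rule of a correlation over 0.1 in every pair, and the main fits used no block. With 2 libraries in an IP group the deviations mirror each other, so the values with IP libraries cannot exclude pairing. The replicate block also ended the KO call of G6pdx (1.13, adjusted p = 0.0687) and the WT call of Cad (-0.72, adjusted p = 0.0904). Depth limits Prpsap2 and Mipol1 most, with at most 10 counts in any IP library.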
